A study of Mus musculus with 11 samples.

Results

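Phrenic motor neurons were compared with GFP-only motor neurons of segments C3-C5 on 8 of the 11 arrays of the series, 4 of each type, chosen by their sample titles. The other 3 arrays held limb motor neurons of the lateral motor column, which had taken up tracer from the radial nerve. They are written LMC radial, entered the model as another cell type, and are given here as a reference level. All 11 samples came from C57/BL6 mouse embryos with the Hb9::GFP reporter, in which sequence of the motor neuron gene Hb9 (Mnx1) drives green fluorescent protein. Dextran-tetramethylrhodamine was applied to the phrenic or the radial nerve of a trunk explant, so that it travelled back along axons to their cell bodies. Spinal cords were then dissociated and motor neurons were sorted by FACS. The phrenic samples therefore carried nerve tracer, and the C3-C5 samples carried the reporter only. The titles of the phrenic samples name no segment, and the descriptions of the C3-C5 samples write rhombomere where the titles write segment. Embryonic age, sorting gates and the number of embryos per sample are not given in the sources used here, nor whether the GFP-only cells still held phrenic neurons that had not taken up tracer. Whether replicates were separate embryos is not stated in the labels, and p-values then reflect only how far these arrays vary, which may be technical.

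As background, spinal motor neurons are grouped into columns by the muscles they reach. The medial column innervates muscles along the spine and keeps the LIM homeodomain factors Lhx3 and Lhx4, the lateral column innervates the limbs and depends on Foxp1, and the phrenic column of the cervical cord innervates the diaphragm, the main muscle of breathing. Hox proteins, which bind DNA together with Pbx and Meis cofactors, set the position of columns along the cord, and Hox5 proteins are needed for phrenic motor neurons. Columns and pools also differ in cadherins and other adhesion proteins, by which motor neurons of a kind gather and their axons find their muscle.

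Promoter sequence is shown for 4 genes with large differences whose start site lies near a homeodomain motif, because homeodomain factors were among the genes that differed most. The 250 bases before the start site were read from the RefSeq promoter windows (build GRCm38.p6), 5′ to 3′ on the strand of the gene, with the motif in capitals. For Cdh7 (chr1:109983473-109983722, plus strand) and Sp8 (chr12:118847309-118847558, plus strand) the capitals mark TAATTA, a core that many homeodomain factors recognise and that reads the same on both strands. For Cdh9 (chr15:16728665-16728914, plus strand) and Lhx4 (chr1:155742028-155742277, minus strand) they mark TGATTNAT, a composite sequence of Hox and Pbx proteins, here on the opposite strand.
Cdh7: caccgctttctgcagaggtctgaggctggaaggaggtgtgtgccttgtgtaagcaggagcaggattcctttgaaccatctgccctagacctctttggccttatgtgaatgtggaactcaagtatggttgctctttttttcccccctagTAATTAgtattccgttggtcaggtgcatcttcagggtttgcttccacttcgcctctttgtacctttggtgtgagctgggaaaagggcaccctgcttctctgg
Sp8: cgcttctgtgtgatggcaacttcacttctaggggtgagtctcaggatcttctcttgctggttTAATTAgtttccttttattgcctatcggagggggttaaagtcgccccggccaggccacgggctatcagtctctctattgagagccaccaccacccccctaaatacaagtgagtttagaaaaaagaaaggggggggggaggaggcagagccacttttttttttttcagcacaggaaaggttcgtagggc
Cdh9: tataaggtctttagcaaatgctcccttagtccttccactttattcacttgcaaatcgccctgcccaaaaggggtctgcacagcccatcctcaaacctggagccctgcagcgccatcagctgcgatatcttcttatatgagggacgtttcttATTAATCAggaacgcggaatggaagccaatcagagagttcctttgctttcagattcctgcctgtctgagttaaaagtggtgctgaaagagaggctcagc
Lhx4: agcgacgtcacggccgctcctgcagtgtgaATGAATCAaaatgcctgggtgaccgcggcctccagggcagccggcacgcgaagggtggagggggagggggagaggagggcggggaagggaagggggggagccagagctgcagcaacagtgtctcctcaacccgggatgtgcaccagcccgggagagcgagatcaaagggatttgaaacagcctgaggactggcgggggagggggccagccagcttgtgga
The motif began 102 bases before the start site in Cdh7, 188 in Sp8, 99 in Cdh9 and 220 in Lhx4. Both strands were searched, and neither motif contains the other, although they can share bases. TAATTA was found in 5.65% of 27025 genes with a window, in 3 of the 15 matched genes among the 20 largest decreases (Sp8, Cdh7 and Tac1) and in 2 of the 14 matched genes among the 20 largest increases (Cntn4 and Mgat4c). TGATTNAT was found in 3.31% of genes, in Lhx4 among the decreases and in Cdh9 and Cntn4 among the increases. These matches describe letters in the windows and nothing about binding.

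Of 45037 probe sets tested, 882 passed at an adjusted p under 0.05 (1.96%), 438 higher in phrenic neurons (0.973%) and 444 lower (0.986%). The tests are from limma with Benjamini-Hochberg adjustment over all probe sets. At least a 2-fold difference was reached by 257 of the higher (0.571%) and 279 of the lower probe sets (0.619%). With each gene represented by its probe set of highest mean, 500 of 18193 genes passed (2.75%), 262 higher (1.44%) and 238 lower (1.31%), and the median log2 difference of all genes was 0.0068. The 4 arrays of each type did not overlap in 889 genes higher in phrenic neurons (4.89%) and 801 lower (4.4%). These shares of passing and of non-overlapping genes are the background for the gene list counts below. Lists and members were chosen with earlier results of these data known, so list counts are no independent evidence. The count of passing probe sets depended on single arrays. Leaving out C3-C5 GFP-only replicate 2, 3 or 4 gave 499, 458 and 540, and without phrenic replicate 4 the probe sets higher in phrenic neurons numbered 671. Below, differences are log2 differences, phrenic minus C3-C5 GFP-only, ± SE, with 4 arrays per type. Levels are log2 values, and a level under 5 lies near the array medians of 4.48 to 4.63. For a gene with any array of the lower type under 5, such values were raised to 5 and the fold is given as a lower bound (at least).

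**Figure D1:**
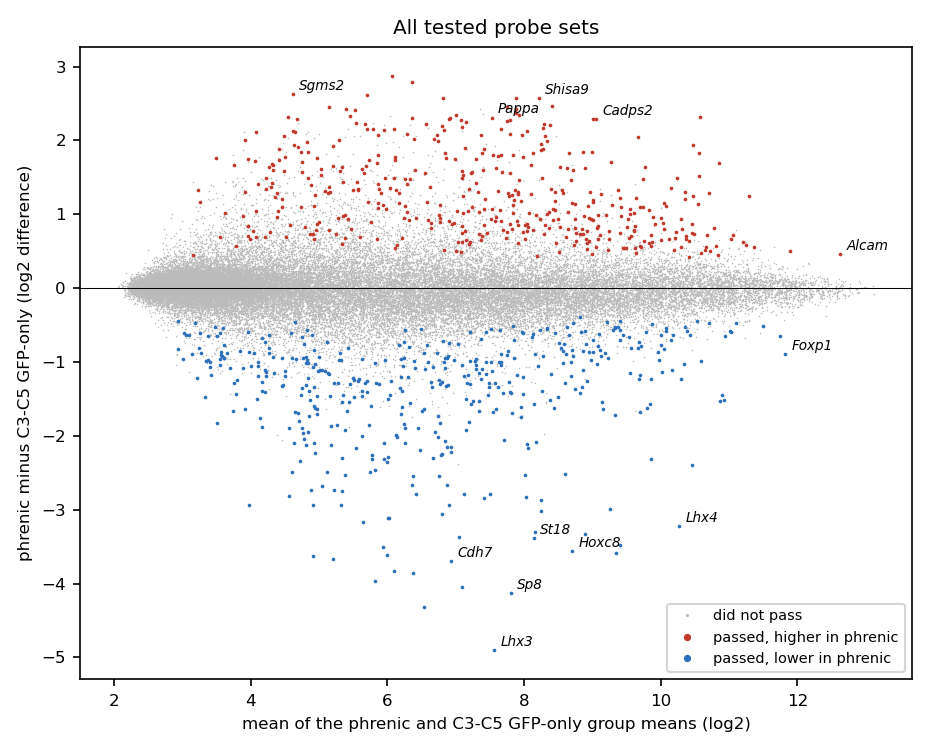
Log2 difference, phrenic minus C3-C5 GFP-only, against the mean of both group means (log2) for the 45037 probe sets tested, 1 point each. Red points passed and were higher in phrenic neurons (438), blue points passed and were lower (444), and the decreases reach further from 0 (Lhx3, -4.90) than the increases among named genes (Sgms2, 2.62).

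The arrays of each type differed in 2 respects that touch the results. In replicates 2 and 3 of both types the 25th percentile of the values lay between 3.18 and 3.2, and in the other arrays between 3.26 and 3.38, so both array sets held both types. No probe set passed in a limma test of whether the difference varied between the array sets (0 of 45037, with 2283 at an unadjusted p under 0.05). Phrenic replicate 4 had the lowest mean correlation with the other phrenic arrays, 0.966, against 0.975 to 0.977 for those. The array closest to it was C3-C5 GFP-only replicate 1 (r = 0.969), and that closest to phrenic replicate 2 was C3-C5 GFP-only replicate 3 (r = 0.986). Among the 40 genes with the largest differences it was the phrenic array nearest to the C3-C5 mean in 13 of 20 increases and 9 of 20 decreases. The phrenic arrays also had higher means of a list of mesenchyme marker genes, with values given with the markers of other cells at the end. Which cells this RNA came from was not tested.

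Defining motor neuron genes were present in both types. Mnx1, whose regulatory sequence drives the reporter, read 8.94, 8.91, 9.09 and 9.08 in phrenic replicates 1 to 4 and 9.17, 8.94, 9.24 and 8.93 in C3-C5 GFP-only replicates 1 to 4. The levels overlapped and the difference was -0.07 ± 0.10 (adjusted p = 0.881). Isl1, a LIM homeodomain factor of many motor neurons, lay at 12.18 to 12.43 in phrenic and 11.88 to 12.08 in C3-C5 arrays. Its arrays did not overlap, but the difference (0.33 ± 0.41) did not pass (adjusted p = 0.838), and its sign turned with the mesenchyme list mean as a covariate (-0.60). The SE and the covariate fit both include the LMC radial arrays: the SD of Isl1 was 0.11 in phrenic, 0.08 in C3-C5 and 1.33 in LMC radial arrays. The part of the LMC radial arrays in the change of sign was not tested. Isl1 did not pass in the fit of the 8 arrays alone either. The related factor Isl2 fell by 0.99 ± 0.16, 1.99-fold (adjusted p = 0.0105), from 7.74 to 7.85 in C3-C5 to 6.67 to 6.87 in phrenic arrays. Of the cholinergic genes, 0 of 11 were higher and 1 lower (9.09%, against 1.31% of all genes). It was the nicotinic receptor subunit Chrnb4, at 3.29 to 4.60 in phrenic and 4.83 to 6.27 in C3-C5 arrays. That call was lost without any of 5 single arrays (adjusted p 0.0533 to 0.139). The acetylcholine synthetic enzyme Chat (-0.22 ± 0.20) and the vesicular transporter Slc18a3 (-0.51 ± 0.18) did not pass (adjusted p = 0.749 and 0.223), and Chat had the opposite sign (0.07) with the mesenchyme covariate. On its 1 probe set Chat lay at 5.16 to 5.74 in phrenic and 5.18 to 6.09 in C3-C5 arrays. Signal this low limits what its lack of a difference can show. Peripherin (Prph), an intermediate filament of motor neurons, was at 11.71 to 12.03 in phrenic and 11.35 to 11.79 in C3-C5 arrays.

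Genes of the medial column were lower in phrenic neurons: 3 of 4 measured members fell (75%, against 1.31% of all genes) and 0 rose, with a list median of -2.34. Lhx3 read 4.22, 4.79, 4.49 and 6.93 in the phrenic replicates and 9.86, 10.09, 10.17 and 9.92 in the C3-C5 GFP-only replicates. Every C3-C5 array was thus high and every phrenic array low, with phrenic replicate 4 the highest of the latter. Lhx3 had the largest difference of the named genes (-4.90 ± 0.47, at least 23.1-fold lower, adjusted p = 0.000385), and the LMC radial mean, 3.85, lay at the phrenic level. Without phrenic replicate 4 its difference was -5.51, and it was -4.31 within replicates 1 and 4 of both types and -5.49 within replicates 2 and 3. Lhx4 read 7.58, 8.46, 9.29 and 9.30 in phrenic replicates and 11.83, 11.85, 11.92 and 11.93 in C3-C5 replicates. It fell by 3.22 ± 0.32, 9.34-fold (adjusted p = 0.000477), and unlike Lhx3 it kept a clear level in phrenic neurons, near the LMC radial mean of 8.36. Mecom, a zinc finger factor of medial column neurons, fell from 11.56 to 11.74 in C3-C5 to 9.73 to 10.71 in phrenic arrays (-1.45 ± 0.25, adjusted p = 0.0141, 0.055 without C3-C5 GFP-only replicate 3 and 0.0552 for the mean of its probe sets). The receptor Fgfr1 (-0.24) did not pass.

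The limb column list fell in 3 of 8 measured genes (37.5%, against 1.31% of all genes) and rose in 0 (median -1.06). The falling genes numbered 5 under the replicate block and 0 with the mesenchyme list mean as a covariate. Foxp1, the Hox accessory factor of limb motor neurons, read 11.34, 11.13, 11.31 and 11.71 in phrenic and 12.21, 12.18, 12.18 and 12.48 in C3-C5 replicates. The arrays did not overlap, and 7 of its 8 probe sets passed in the same direction (-0.89 ± 0.13, 1.86-fold lower, adjusted p = 0.00535). Aldh1a2, an enzyme of retinoic acid synthesis made in limb-level motor neurons, fell by 1.23 ± 0.14 (adjusted p = 0.00136). Gfra1, a receptor of glial cell line-derived neurotrophic factor, fell by 1.33 ± 0.20 (adjusted p = 0.00649, 1 of 3 probe sets passing). With the mesenchyme covariate their differences were -1.18, -1.34 and -1.56 (adjusted p = 0.0527, 0.0742 and 0.132). For all 3 of these genes the LMC radial mean was higher still (12.59, 11.21 and 10.20). Lhx1, a LIM factor of lateral limb neurons, read 9.27, 7.95, 8.0 and 9.94 in phrenic and 10.30, 10.47, 10.37 and 10.66 in C3-C5 replicates. Its arrays did not overlap, yet its difference, -1.66 ± 0.38, did not pass (adjusted p = 0.0535), although 1 of its 2 probe sets passed lower in phrenic neurons. The pool factor Etv4 (-1.39 ± 0.35, adjusted p = 0.0774) and Runx1 (-0.18) did not pass. Lhx1 passed without phrenic replicate 4 (-2.04, adjusted p = 0.00317) and with the replicate number as a block (adjusted p = 0.0381).

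Among wider motor neuron identity genes 6 of 15 fell (40%, against 1.31% of all genes) and 1 rose (6.67%, against 1.44%, median -0.28). The falling genes numbered 3 without phrenic replicate 2 or C3-C5 GFP-only replicate 2, 3 or 4. Nkx6-1, a homeodomain factor of ventral progenitors and some motor neurons, read 4.70, 4.92, 5.0 and 5.81 in phrenic and 7.69, 7.68, 7.38 and 7.86 in C3-C5 replicates. It was low in every phrenic array and fell at least 5.46-fold (-2.54 ± 0.22, adjusted p = 0.00017), with an LMC radial mean of 4.69. The LIM-only protein Lmo4, which competes for the LIM domain partner Ldb1, fell by 1.28 ± 0.18 (adjusted p = 0.0041), while Ldb1 itself (-0.09) did not pass. Lmo3, another LIM-only protein, fell from 10.72 to 10.76 in C3-C5 to 6.93 to 8.89 in phrenic arrays (-2.99 ± 0.31, 7.93-fold, adjusted p = 0.000732). Onecut2, a factor of early motor neurons, rose by 0.77 ± 0.15 (adjusted p = 0.0242). The call for Onecut2 was lost without any of 4 single arrays (phrenic replicate 1 and C3-C5 GFP-only replicates 1, 2 and 3, adjusted p 0.0646 to 0.0849). Of spinal accessory and branchiomotor genes 0 of 6 passed in limma (1 at an unadjusted p under 0.05), and Phox2a and Tbx20 lay under 5 in every array of both types.

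The list of phrenic column genes rose in 7 of 11 measured members (63.6%, against 1.44% of all genes) and fell in 0 (median 0.72). The arrays did not overlap in 9 members, all higher in phrenic neurons, against 4.89% of all genes. Without C3-C5 GFP-only replicate 3, 4 members rose. Like all lists here it was chosen with earlier results of these data known, and some members may have been picked from this very study. Their direction is therefore no independent evidence. Pappa, a metalloprotease that frees insulin-like growth factors from their binding proteins, read 8.53, 8.62, 9.16 and 8.42 in phrenic and 6.42, 6.30, 6.48 and 6.30 in C3-C5 replicates. All phrenic arrays were high, all 3 of its probe sets passed, and it rose 4.95-fold (2.31 ± 0.17, adjusted p = 4.9e-05). Pou3f1 (also Scip or Oct6), a POU-domain factor known from the phrenic column, read 11.59, 11.35, 11.36 and 11.39 in phrenic and 10.43, 10.77, 10.77 and 10.84 in C3-C5 replicates. It was well expressed in both types and was 1.64-fold higher in phrenic than in C3-C5 arrays (0.72 ± 0.13, adjusted p = 0.019). The LMC radial mean was 8.81. The Pou3f1 call was lost without phrenic replicate 1 (adjusted p = 0.0541), without C3-C5 GFP-only replicate 2 (0.0523) or 3 (0.0545) and with the replicate block (0.0548). Alcam, an immunoglobulin adhesion protein of motor axons, rose by 0.47 ± 0.09, 1.38-fold (adjusted p = 0.0183), from 12.31 to 12.44 to 12.78 to 12.93. It lost its call without C3-C5 GFP-only replicate 1 (adjusted p = 0.0552) or 3 (0.0633).

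**Figure D2:**
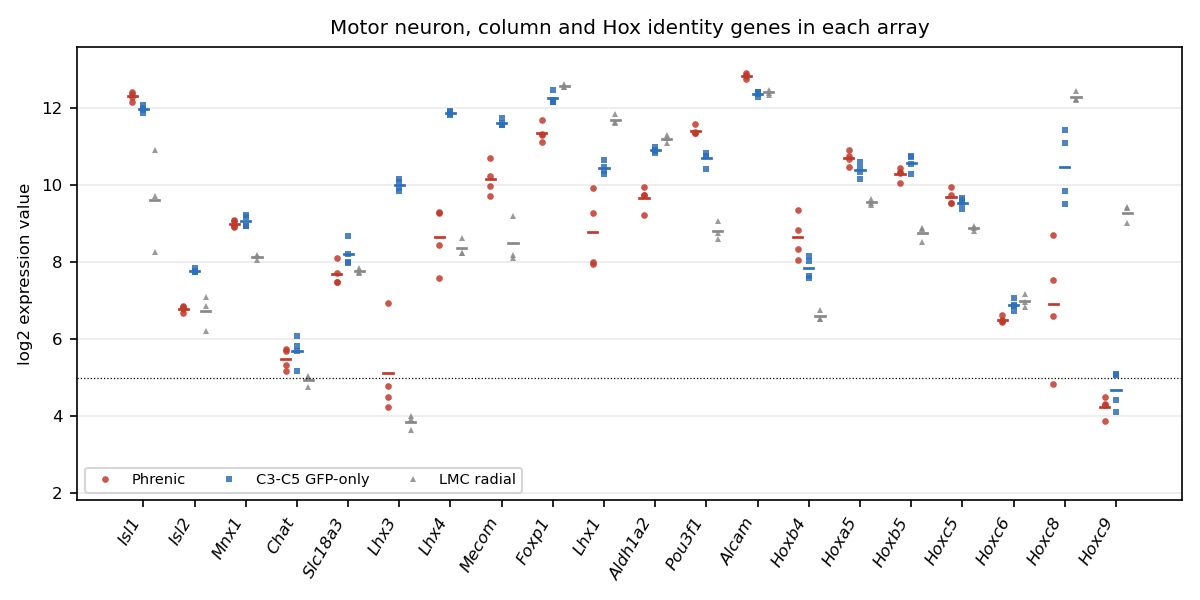
Log2 expression values of motor neuron, column and Hox genes in each array, with a short line at each group mean, for phrenic (circles, 4 arrays), C3-C5 GFP-only (squares, 4 arrays) and LMC radial (triangles, 3 arrays) samples. The dotted line marks a log2 value of 5. Lhx3, Lhx4 and Hoxc8 lie lower in every phrenic than in every C3-C5 array, while Hoxa5, Hoxb5 and Hoxc5 overlap.

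Hox genes of groups 1 to 5 did not pass in limma in either direction, 0 of 7 in groups 1 to 3 (4 at an unadjusted p under 0.05) and 0 of 6 in groups 4 and 5 (2 at that p). Hoxa5 read 10.77, 10.93, 10.69 and 10.48 in phrenic and 10.17, 10.46, 10.60 and 10.34 in C3-C5 replicates, and Hoxc5 lay at 9.54 to 9.96 and 9.39 to 9.66. Hoxa5 and Hoxc5 were thus well expressed in both types with overlapping arrays (0.33 ± 0.13, adjusted p = 0.283, and 0.15 ± 0.12, adjusted p = 0.699). The third gene of the Hox5 group, Hoxb5 (-0.30 ± 0.14, adjusted p = 0.403) and Hoxb4 (0.79 ± 0.25, adjusted p = 0.17) also overlapped, and the sign of Hoxb4 turned with the mesenchyme covariate (-0.04).

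In Hox groups 6 to 8, Hoxc8 fell, 1 of 6 measured genes, and 0 rose (16.7% lower against 1.31% of all genes). Hoxc8, a gene of brachial cord, read 7.54, 6.60, 4.83 and 8.72 in phrenic and 11.45, 9.52, 9.86 and 11.10 in C3-C5 replicates. The arrays did not overlap, but they spread widely in both types, and the LMC radial mean was higher, at 12.30. The fall was at least 11.5-fold (-3.56 ± 0.71, adjusted p = 0.0283). The Hoxc8 call was lost without phrenic replicate 2 (adjusted p = 0.0618) and without C3-C5 GFP-only replicate 1 (0.0829), 3 (0.0624) or 4 (0.0937). Hoxc6 (-0.38 ± 0.11, adjusted p = 0.129) did not overlap either, with 6.44 to 6.62 in phrenic and 6.72 to 7.06 in C3-C5 arrays. Its other 2 probe sets passed lower in phrenic neurons (-1.45 ± 0.24, adjusted p = 0.00999, and -1.26 ± 0.21, adjusted p = 0.0129), as did the mean of all its probe sets (-1.03, adjusted p = 0.00266). In groups 9 to 11, 7 of 9 genes had both means under 5 and 0 passed in limma (0 at an unadjusted p under 0.05). Among cofactors, 2 of 8 fell (25%, against 1.31% of all genes) and 0 rose. The 2 that fell were Meis1, by 1.63 ± 0.26 (3.09-fold, adjusted p = 0.00824), and Meis3, by 0.74 ± 0.10 (adjusted p = 0.00345). Of Meis1 1 of 3 probe sets passed, and the mean of all did not (-0.77, adjusted p = 0.0522), while Meis2 (0.01), Pbx2 (0.53) and Pbx3 (0.13) did not pass.

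Of 21 measured neurogenic and zinc finger factors 7 fell (33.3%) and 1 rose (4.76%, median -0.31), against 1.31% and 1.44% of all genes. Sp8, a zinc finger factor known from limb and forebrain, read 5.33, 5.78, 5.20 and 6.66 in phrenic and 9.48, 10.17, 9.96 and 9.86 in C3-C5 replicates. Every C3-C5 array was high, and Sp8 was 17.4-fold lower in phrenic neurons (-4.12 ± 0.29, adjusted p = 4.65e-05), near the LMC radial mean of 4.96. St18, a zinc finger factor of the Myt1 family, read 7.01, 6.37, 5.79 and 6.65 against 9.42, 9.96, 10.07 and 9.92 (-3.39 ± 0.24, adjusted p = 4.41e-05). As in Sp8, the phrenic level of St18 lay near that of LMC radial neurons (6.48). Bcl11a and Bcl11b, zinc finger factors of neuronal differentiation, fell by 1.57 ± 0.12 (adjusted p = 9.18e-05, 2 of 7 probe sets passing) and 0.99 ± 0.11 (adjusted p = 0.000915). The bHLH factor Neurod2 fell by 2.66 ± 0.39 (adjusted p = 0.0053), and the HMG-box factor Tox rose by 1.86 ± 0.22 (adjusted p = 0.00159). The differences of Sp8, St18, Bcl11a and Bcl11b passed in every alternative tried.

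In the list of POU, ETS, Runx and Klf factors 3 of 15 rose (20%, against 1.44% of all genes) and 0 fell (median -0.07). Klf5, a zinc finger factor, read 7.69, 7.80, 7.84 and 6.71 in phrenic and 4.77, 5.37, 5.32 and 5.37 in C3-C5 replicates. It was high in every phrenic array, lowest in replicate 4, and rose at least 4.74-fold (2.30 ± 0.29, adjusted p = 0.00214, 1 of 3 probe sets passing). Klf6 rose by 0.87 ± 0.15 in all 5 of its probe sets (adjusted p = 0.0117). Of 6 Iroquois homeodomain genes 1 fell (16.7%, against 1.31% of all genes), Irx2 (-1.25 ± 0.18, adjusted p = 0.00538), and the others did not pass. Among motor neuron subtype genes 1 of 12 fell (8.33%, against 1.31% of all genes). It was Chodl, a marker of fast motor neurons in the adult, at 10.55 to 10.70 in C3-C5 and 8.37 to 9.45 in phrenic arrays (-1.62 ± 0.20, adjusted p = 0.00188).

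Beyond these lists the largest decreases held several genes near background in phrenic neurons. Gm2694, a predicted transcript, read 3.36, 6.08, 5.14 and 2.91 in phrenic and 8.29, 8.95, 8.86 and 8.66 in C3-C5 replicates. It was at least 10.4-fold lower (-4.32 ± 0.57, adjusted p = 0.00302), with phrenic arrays that spread by more than the C3-C5 arrays did. Lypd1, a GPI-anchored modulator of nicotinic receptors, fell 7.11-fold (-2.83 ± 0.17, adjusted p = 1.25e-05), from 9.23 to 9.93 to 6.27 to 6.78. The zinc-sensing receptor Gpr39 fell 7.16-fold (-2.84 ± 0.25, adjusted p = 0.000204). Tnr, a tenascin of the neural matrix, fell at least 3.29-fold (-2.75 ± 0.38, adjusted p = 0.00389). Pter (-3.67 ± 0.41), Aard (-2.79 ± 0.37) and 9130024F11Rik (-2.94 ± 0.31) also fell, with 9130024F11Rik at 2.41 to 2.59 in every phrenic array.

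Among the largest increases outside the lists, Sgms2, a sphingomyelin synthase, read 5.90, 6.00, 5.83 and 5.99 in phrenic and 2.91, 3.51, 3.96 and 2.85 in C3-C5 replicates. It was steady in phrenic neurons and under 5 in all C3-C5 arrays, so its rise was at least 1.91-fold (2.62 ± 0.23, adjusted p = 0.000194). Cntnap4, a neurexin-like membrane protein, rose 4.66-fold (2.22 ± 0.29, adjusted p = 0.00248). Cd83, a membrane glycoprotein best known from immune cells, rose from 7.03 to 7.46 to 9.15 to 9.68 (2.20 ± 0.26, adjusted p = 0.00164). Col26a1, a collagen, rose 4.94-fold (2.31 ± 0.31, adjusted p = 0.00321). Ahnak, a large scaffold protein, read 9.40, 7.88, 9.77 and 9.33 against 6.27, 7.43, 6.61 and 6.70 (2.34 ± 0.46, adjusted p = 0.0262, 1 of 4 probe sets passing). Its call was lost without phrenic replicate 1 (adjusted p = 0.0709) or 3 (0.064), without C3-C5 GFP-only replicate 1 (0.0802), 3 (0.0866) or 4 (0.0791), and with the replicate block (0.0764). Over the 20 largest increases the LMC radial mean lay nearer the C3-C5 mean than the phrenic mean in 20 of 20 genes. Over the 20 largest decreases it lay nearer the C3-C5 mean in 13 and nearer the phrenic mean in 7, which were Lhx3, Lhx4, Sp8, St18, Nptx2, Tac1 and 9130024F11Rik.

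**Figure D3:**
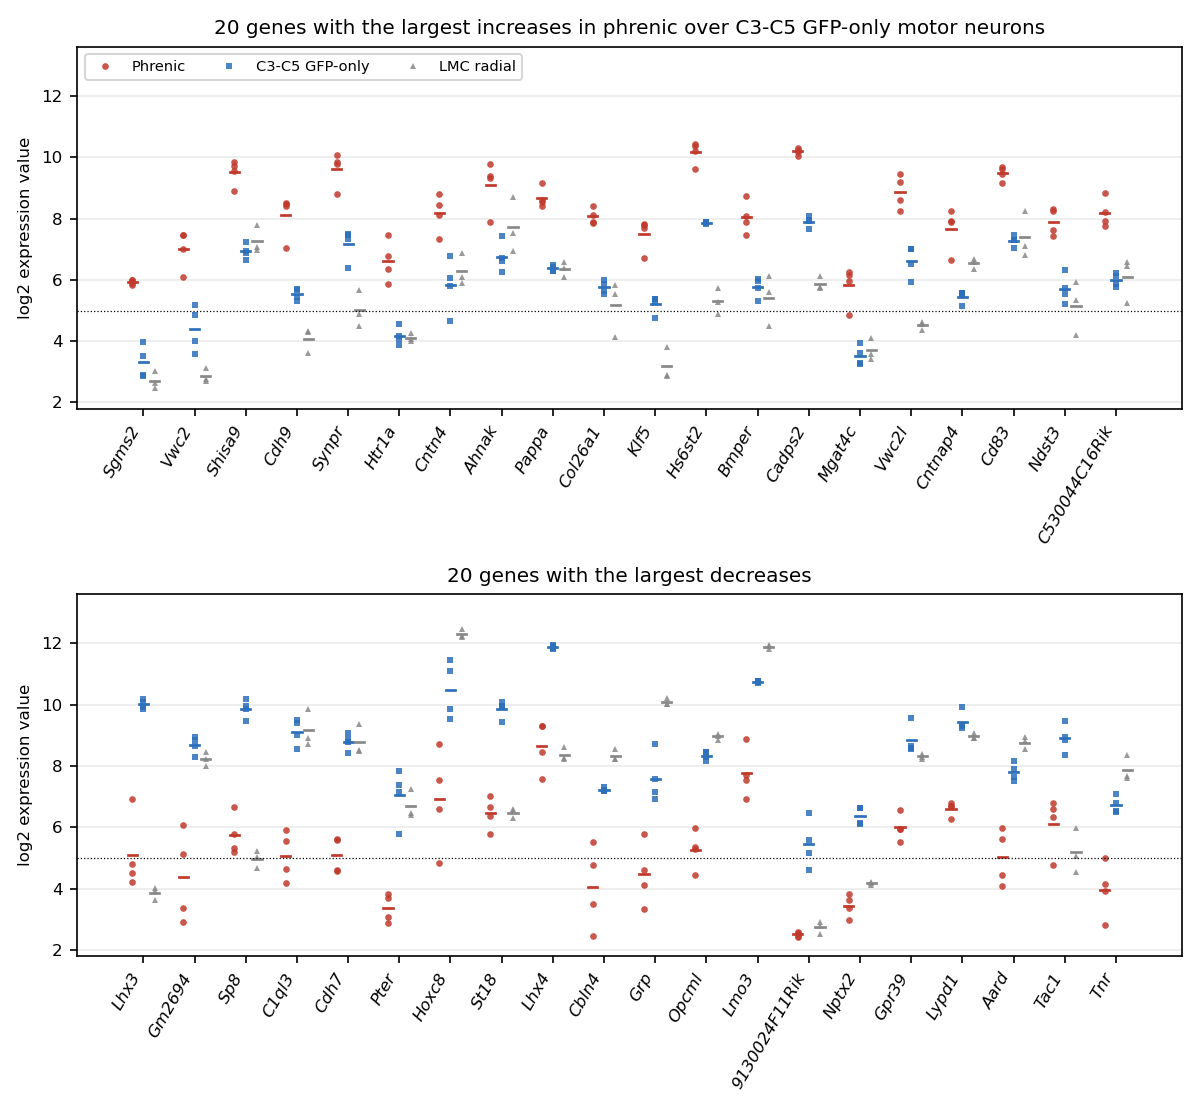
Log2 expression values in each array for the 20 genes with the largest increases (above) and the 20 with the largest decreases (below) among passing genes whose phrenic and C3-C5 GFP-only arrays do not overlap, with a short line at each group mean. The dotted line marks a log2 value of 5. The LMC radial mean (triangles) is nearer the C3-C5 than the phrenic mean in all 20 increases, where it can lie well below both (Hs6st2, 5.31), and nearer the phrenic mean in 7 of the decreases, Lhx3 and Sp8 among them.

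Adhesion genes moved in both directions. Of 16 measured type I and II cadherins, which mediate calcium-dependent binding between like cells, 2 rose (12.5%) and 3 fell (18.8%, median -0.01). Over all genes 1.44% rose and 1.31% fell. Cdh9 read 8.47, 8.50, 8.41 and 7.05 in phrenic and 5.43, 5.71, 5.66 and 5.32 in C3-C5 replicates. It was high in every phrenic array, with replicate 4 below the others, and rose 5.97-fold (2.58 ± 0.31, adjusted p = 0.00155). Cdh10 rose 4.14-fold in all 4 of its probe sets (2.05 ± 0.20, adjusted p = 0.000417), with phrenic levels of 10.31 to 10.84. Cdh7 read 5.57, 4.56, 4.61 and 5.61 in phrenic and 8.87, 8.43, 8.77 and 9.06 in C3-C5 replicates. It was near background in phrenic neurons and fell at least 11.2-fold in all 3 of its probe sets (-3.69 ± 0.29, adjusted p = 9.68e-05). Cdh13, an atypical cadherin on a lipid anchor, fell 3.36-fold (-1.75 ± 0.17, adjusted p = 0.000378). Cdh20, under 5 in every array of both types, fell by 0.88 ± 0.18 (adjusted p = 0.0346), a call lost without any of 6 single arrays (up to 0.115) and with the replicate block (0.0636), and the broad N-cadherin Cdh2 (0.01) did not pass.

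Of 10 delta-protocadherins, 3 rose (30%) and 2 fell (20%, median 0.43), against 1.44% and 1.31% of all genes. Pcdh11x read 11.50, 11.36, 11.53 and 11.49 in phrenic and 9.39, 9.99, 9.81 and 9.38 in C3-C5 replicates. The phrenic arrays were high and close together, and the rise was 3.55-fold (1.83 ± 0.17, adjusted p = 0.000266). Pcdh10 rose 3.26-fold in 5 of its 6 probe sets (1.71 ± 0.20, adjusted p = 0.00121). Pcdh9 fell 4.24-fold (-2.08 ± 0.29, adjusted p = 0.00392, 1 of 3 probe sets passing). Pcdh18 rose by 1.77 ± 0.33 (adjusted p = 0.019) and Pcdh19 fell by 0.80 ± 0.15 (adjusted p = 0.0209), and each call was lost without any of 5 single arrays (up to 0.068 and 0.0651). Pcdh18 also lost its call with the replicate block (adjusted p = 0.0535).

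Of 11 IgLON and contactin genes, GPI-anchored immunoglobulin proteins of axons, 3 rose (27.3%) and 4 fell (36.4%, median -0.14). The shares over all genes were 1.44% and 1.31%. The falling IgLONs were Opcml and Ntm. Opcml read 5.30, 5.37, 5.97 and 4.43 in phrenic and 8.28, 8.44, 8.44 and 8.15 in C3-C5 replicates. It was low in every phrenic array (-3.06 ± 0.25, at least 7.56-fold, adjusted p = 0.000145), and Ntm fell 4.16-fold (-2.06 ± 0.20, adjusted p = 0.000415). The other IgLONs Lsamp (0.93 ± 0.17, adjusted p = 0.0171) and Negr1 (1.20 ± 0.24, adjusted p = 0.0282) rose. Among contactins, Cntn3 (-2.02 ± 0.32, adjusted p = 0.00824) and Cntn2 (-1.36 ± 0.23, adjusted p = 0.0123) fell and Cntn4 rose (2.35 ± 0.43, adjusted p = 0.0196). All 3 increases were lost without phrenic replicate 1 or C3-C5 GFP-only replicate 2, where 0 members rose. For Cntn4 the adjusted p was then 0.0566 and 0.064, and it was 0.0547 without C3-C5 GFP-only replicate 3. Negr1 lost its call in 7 of 8 fits that left out an array (up to 0.0929), and Lsamp in 2 (up to 0.0555). The 4 decreases passed whichever single array was left out. In the wider list of immunoglobulin adhesion genes 2 of 18 rose (11.1%, against 1.44% of all genes) and 0 fell. The 2 that rose were Alcam and Dscam (0.69 ± 0.13, adjusted p = 0.0181), and Dscam lost its call in 4 of 8 fits that left out an array (up to 0.0685).

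**Figure D4:**
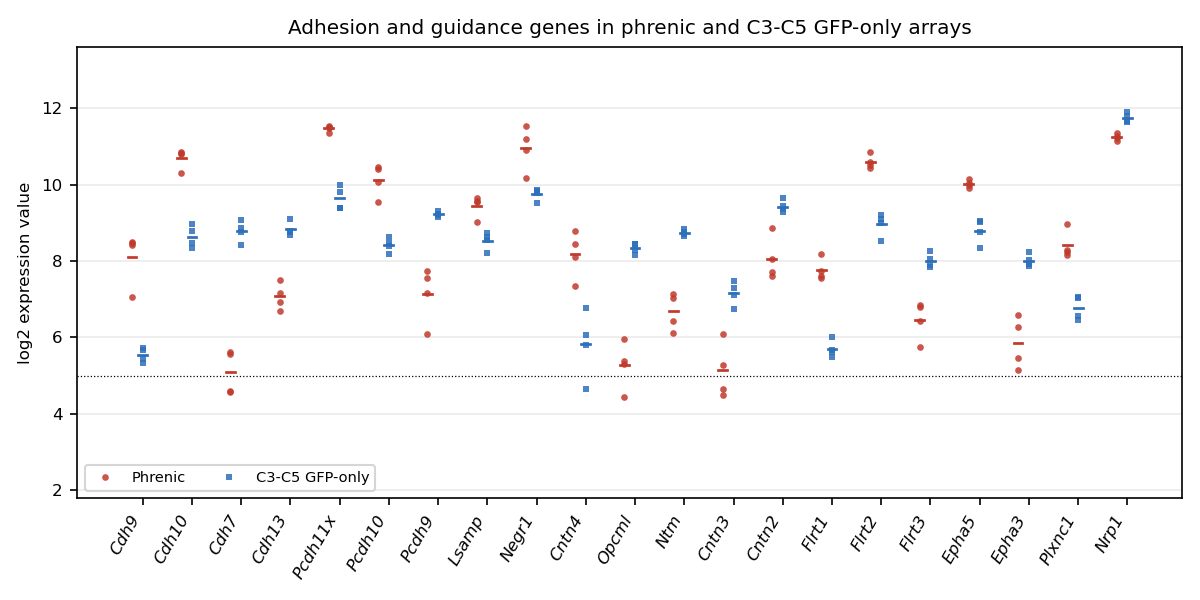
Log2 expression values of adhesion and guidance genes in each phrenic (circles) and C3-C5 GFP-only (squares) array, 4 of each, with a short line at each group mean and a dotted line at a log2 value of 5. Cdh9, Cdh10, Pcdh11x and Flrt1 lie higher in every phrenic array, and Cdh7, Opcml and Ntm lie lower.

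Of 21 Eph and ephrin genes 1 rose and 1 fell (4.76% each), of 20 semaphorins 1 fell (5%), and of 11 plexins and neuropilins 1 rose and 1 fell (9.09% each), against 1.44% higher and 1.31% lower over all genes. The receptor Epha5 read 9.92, 10.14, 9.98 and 10.04 in phrenic and 8.77, 9.01, 9.05 and 8.34 in C3-C5 replicates, and rose 2.34-fold (1.23 ± 0.16, adjusted p = 0.00298). Epha3, a receptor known from medial column neurons, went the other way, from 7.86 to 8.24 in C3-C5 to 5.14 to 6.59 in phrenic arrays (-2.15 ± 0.32, 4.43-fold, adjusted p = 0.00639, 1 of 4 probe sets passing). Epha4, which steers limb axons, overlapped (-0.17 ± 0.12, adjusted p = 0.633), although 1 of its 5 probe sets passed lower in phrenic neurons. Plxnc1, a semaphorin receptor, rose 3.08-fold (1.62 ± 0.24, adjusted p = 0.00544, 2 of 6 probe sets passing). Nrp1, a receptor of class 3 semaphorins, fell by 0.51 ± 0.10 (adjusted p = 0.0216) and Sema5a by 0.75 ± 0.15 (adjusted p = 0.0309). The call was lost for Nrp1 without any of 4 single arrays (up to 0.068), for Sema5a without any of 5 (up to 0.096), and for both with the replicate block (0.0632 each).

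In the list of Slit, Robo, netrin and Flrt genes 3 of 22 rose and 4 fell (median 0.12). The Flrt proteins, which bind Unc5 receptors and latrophilins, divided. Flrt1 read 8.19, 7.6, 7.73 and 7.56 in phrenic and 5.50, 5.63, 5.67 and 6.00 in C3-C5 replicates. It was high in every phrenic array (2.07 ± 0.16, 4.21-fold, adjusted p = 9.18e-05), and Flrt2 rose 3.12-fold (1.64 ± 0.24, adjusted p = 0.00582). Flrt3 fell 2.95-fold (-1.56 ± 0.22, adjusted p = 0.00458). The repellent ligand Slit1 fell by 1.00 ± 0.11 (adjusted p = 0.00113). The Slit receptor Robo2 (-1.25 ± 0.26), Slit3 (-1.05 ± 0.22) and Ntng1 (1.01 ± 0.22) passed at adjusted p of 0.0329, 0.0343 and 0.0401, and lost their calls without any of 5, 5 and 7 single arrays. With the replicate block Slit3 did not pass (0.0717). The count of falling genes was 2 without C3-C5 GFP-only replicate 3 or 4.

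Heparan sulfate chains hold many secreted signals at the cell surface. Enzymes that build and sulfate them rose in 4 of 18 measured genes (22.2%) and fell in 2 (11.1%, median 0.06). Over all genes the shares were 1.44% and 1.31%. The 6-O-sulfotransferase Hs6st2 read 10.36, 10.22, 9.63 and 10.43 in phrenic and 7.86, 7.84, 7.89 and 7.89 in C3-C5 replicates. The C3-C5 arrays were nearly equal and all phrenic arrays lay above them (2.29 ± 0.20, 4.9-fold, adjusted p = 0.000204). The N-deacetylase and N-sulfotransferase Ndst3 rose 4.59-fold (2.20 ± 0.37, adjusted p = 0.0109). Its relative Ndst4 (2.12 ± 0.40, adjusted p = 0.0209) and the 3-O-sulfotransferase Hs3st4 (1.10 ± 0.21, adjusted p = 0.0216) rose too, calls lost without any of 4 and 5 single arrays, and for Hs3st4 with the replicate block (0.0605). The count of rising enzymes was 2 without C3-C5 GFP-only replicate 2 or 3. The 3-O-sulfotransferase Hs3st3b1 moved the other way, from 8.56 to 9.60 in C3-C5 to 6.12 to 7.71 in phrenic arrays (-2.11 ± 0.31, 4.32-fold, adjusted p = 0.00533, 1 of 4 probe sets passing). Hs3st3a1 fell by 1.24 ± 0.22 (adjusted p = 0.0151), lost without C3-C5 GFP-only replicate 2 (0.0568) or 3 (0.0595).

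Secreted antagonists and modulators of bone morphogenetic proteins (BMPs) rose in 4 of 16 measured genes (25%, against 1.44% of all genes) and fell in 0 (median 0.17). Both means were under 5 in 8 of the 16. Vwc2 read 7.48, 7.46, 7.0 and 6.11 in phrenic and 4.00, 4.84, 5.17 and 3.57 in C3-C5 replicates, and Vwc2l read 8.60, 9.45, 9.20 and 8.25 against 6.53, 7.0, 7.01 and 5.94. Both are secreted proteins with von Willebrand factor C domains, and both were high in every phrenic array (2.62 ± 0.38, at least 3.92-fold, adjusted p = 0.00498, and 2.26 ± 0.29, 4.79-fold, adjusted p = 0.00253). Bmper, a BMP-binding endothelial regulator, rose 4.9-fold (2.29 ± 0.35, adjusted p = 0.00635), and the follistatin-like Fstl5 rose by 0.88 ± 0.12 (adjusted p = 0.00321). The classical antagonists noggin (Nog) and chordin (Chrd) were under 5 in every array of both types.

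In the insulin-like growth factor list 2 of 16 rose (12.5%) and 1 fell (6.25%, median 0.36), against 1.44% and 1.31% of all genes. Beside Pappa, its relative Pappa2 rose by 2.00 ± 0.38, at least 2.46-fold (adjusted p = 0.0212), a call lost without any of 5 single arrays (up to 0.0789). Stc1, a stanniocalcin that inhibits Pappa, fell at least 1.63-fold (-1.15 ± 0.17, adjusted p = 0.00486). Igf2 was at 7.65 to 9.36 in phrenic and 6.19 to 6.86 in C3-C5 arrays and did not pass (1.93 ± 0.46, adjusted p = 0.0634). Its phrenic values were highest in replicates 3 and 4, the arrays with the highest mesenchyme list means, 6.17 and 6.48, whose part in this difference was not tested. Retinoid genes fell in 4 of 16 (25%, against 1.31% of all genes) and rose in 0 (median -0.06). Beside Aldh1a2, those that fell were the retinol receptor Stra6 (-1.29 ± 0.20, adjusted p = 0.00824) and the nuclear receptors Rxrg (-1.17 ± 0.19, adjusted p = 0.00985) and Rarb (-0.96 ± 0.20, adjusted p = 0.0343). The Rarb call was lost without any of 6 single arrays (up to 0.107). Of 13 neurotrophic receptors Gfra1 alone passed (7.69% lower, against 1.31% of all genes). The GDNF receptor Ret (0.26) and the hepatocyte growth factor receptor Met (1.09, adjusted p = 0.0716) did not, with Met at 9.92 to 10.96 in phrenic and 9.06 to 9.68 in C3-C5 arrays.

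Neuropeptide precursors and secretory granins fell in 5 of 26 measured genes (19.2%, against 1.31% of all genes) and rose in 0 (median -0.18). Both means were under 5 in 12 of the 26. Tac1, the substance P precursor, read 6.78, 6.59, 6.32 and 4.77 in phrenic and 9.46, 8.95, 8.83 and 8.35 in C3-C5 replicates. It was lower in every phrenic array (-2.78 ± 0.44, at least 6.62-fold, adjusted p = 0.00851), with an LMC radial mean of 5.19. Cartpt, the precursor of CART peptides, fell at least 5.58-fold (-2.54 ± 0.25, adjusted p = 0.000406), and Grp, gastrin-releasing peptide, at least 5.24-fold (-3.12 ± 0.49, adjusted p = 0.00801). In contrast to Tac1, these were higher in LMC radial neurons (9.64 and 10.09) than in C3-C5 cells. The granin Scg2 fell by 0.87 ± 0.13 (adjusted p = 0.00648) and Vgf by 1.05 ± 0.19 (adjusted p = 0.018). The Vgf call was lost in 2 of 8 fits that left out an array (up to 0.0662) and with the replicate block (0.0547).

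Secreted synaptic organisers, proteins that bridge or assemble synapses, fell in 7 of 24 measured genes and rose in 1 (median -0.23). That is 29.2% lower and 4.17% higher, against 1.31% and 1.44% of all genes. C1ql3 read 4.18, 5.56, 4.64 and 5.91 in phrenic and 8.54, 9.02, 9.50 and 9.39 in C3-C5 replicates. It was near background in phrenic neurons and fell at least 13.4-fold (-4.04 ± 0.39, adjusted p = 0.000415). The cerebellin Cbln1 read 9.25, 9.23, 8.76 and 9.81 against 11.68, 11.62, 11.78 and 11.56, a 5.27-fold fall in all 3 of its probe sets (-2.40 ± 0.18, adjusted p = 8.45e-05). Cbln1 thus stayed well expressed in phrenic neurons, whereas Cbln4 was at 2.46 to 5.53 against 7.19 to 7.32 (-3.16 ± 0.51, at least 4.26-fold, adjusted p = 0.00974). The neuronal pentraxin Nptx2, which clusters AMPA receptors, fell at least 2.61-fold (-2.94 ± 0.19, adjusted p = 2.48e-05). The neurexophilins Nxph1 (-1.47 ± 0.18, adjusted p = 0.00198) and Nxph4 (-2.26 ± 0.29, adjusted p = 0.00224) fell. C1ql1, under 5 in every array of both types, fell (-0.46 ± 0.10) and Brinp1 (1.33 ± 0.27) rose at adjusted p of 0.0473 and 0.034, each lost without any of 7 single arrays, and C1ql1 with the replicate block (0.0608).

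Of 25 glutamate receptor and auxiliary subunit genes 3 rose (12%) and 1 fell (4%, median -0.05), against 1.44% and 1.31% of all genes. Shisa9, an auxiliary protein of AMPA receptors, read 9.54, 8.90, 9.73 and 9.85 in phrenic and 6.95, 7.24, 6.88 and 6.64 in C3-C5 replicates. It was high in every phrenic array (2.58 ± 0.24, 5.97-fold, adjusted p = 0.000293, 1 of 3 probe sets passing). The AMPA subunit Gria3 rose 2.14-fold (1.10 ± 0.14, adjusted p = 0.00198) and the kainate subunit Grik1 2.52-fold (1.33 ± 0.21, adjusted p = 0.00892). The NMDA subunit Grin2c read 4.17, 4.24, 4.20 and 4.17 against 6.47, 6.59, 6.62 and 6.28. Every phrenic array was near background, and the fall of at least 2.81-fold had the smallest adjusted p of the named genes (-2.30 ± 0.10, adjusted p = 4.15e-06). Of 14 GABA-A and glycine receptor genes 2 rose (14.3%, against 1.44% of all genes) and 0 fell. Gabrg1 rose at least 2.23-fold (1.64 ± 0.22, adjusted p = 0.00321). Glrb rose by 0.74 ± 0.16 (adjusted p = 0.0412), a call lost without any of 7 single arrays (up to 0.125) and with the replicate block (0.06). The serotonin receptor Htr1a read 5.86, 6.34, 7.47 and 6.77 against 3.89, 4.07, 4.18 and 4.56. It was above 5 in the phrenic arrays only and rose at least 3.05-fold (2.43 ± 0.29, adjusted p = 0.00145). Of the 11 serotonin receptors measured it alone passed (9.09% higher, against 1.44% of all genes), and 8 had both means under 5.

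Of 37 potassium channel genes 2 rose and 2 fell (5.41% each), and of 24 sodium and calcium channel genes 1 rose and 1 fell (4.17% each), against 1.44% higher and 1.31% lower over all genes. The potassium channel Kcnc4 rose 3.73-fold (1.90 ± 0.27, adjusted p = 0.00516), from 5.50 to 7.02 in C3-C5 to 7.89 to 8.24 in phrenic arrays. Kcnip1, a subunit of A-type potassium channels, fell 2.31-fold (-1.21 ± 0.15, adjusted p = 0.00242). The other channel calls were lost without single arrays: Kcnc2 (0.94, adjusted p = 0.0296) without any of 6, Kcnab1 (-0.89, adjusted p = 0.0209) without phrenic replicate 1 or C3-C5 GFP-only replicate 4, Cacna2d3 (-1.82, adjusted p = 0.0161) without any of 3 and Scn8a (0.71, adjusted p = 0.0401) without any of 6. Kcnab1 was also lost with the replicate block (0.0535).

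Of 32 synaptic vesicle genes 3 rose (9.38%, against 1.44% of all genes) and 0 fell (median -0.04). Cadps2, which primes dense-core vesicles for release, read 10.31, 10.19, 10.25 and 10.03 in phrenic and 7.97, 7.66, 7.92 and 8.07 in C3-C5 replicates. Both types were tight and far apart (2.29 ± 0.13, 4.9-fold, adjusted p = 1.13e-05), while its paralog Cadps (-0.08) did not pass. Synpr, a vesicle membrane protein of the synaptophysin family, read 10.09, 9.79, 9.84 and 8.81 against 6.39, 7.50, 7.46 and 7.34 (2.46 ± 0.35, 5.51-fold, adjusted p = 0.00439). Synpr and Cadps2 were high in every phrenic array, and Syn2, a synapsin, rose 2.29-fold (1.20 ± 0.20, adjusted p = 0.0108) in 1 of its 6 probe sets, whose mean did not pass (0.38, adjusted p = 0.12). General vesicle genes such as Snap25 (0.17) and Syt1 (0.08) did not pass. Among 11 neurofilament and axonal transport genes 1 rose (9.09%, against 1.44% of all genes), the dynein intermediate chain Dync1i1 (1.63 ± 0.28, 3.09-fold, adjusted p = 0.0126). Nefl (0.03) and Nefm (-0.09) did not pass.

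Genes of axon injury (0 of 18), immediate early response (0 of 15) and apoptosis (0 of 18) did not pass in limma, with 5, 4 and 2 genes at an unadjusted p under 0.05. Atf3, a transcription factor of injured neurons, was at 4.13 to 7.29 in phrenic and 4.74 to 6.09 in C3-C5 arrays (0.09 ± 0.61), highest in phrenic replicate 4. Of 16 cholesterol synthesis genes 1 rose (6.25%, against 1.44% of all genes), Hsd17b7 (0.56 ± 0.11, adjusted p = 0.0226). Its call was lost without any of 5 single arrays (up to 0.0831). Of 17 glycolysis and hypoxia genes 1 rose (5.88%, against 1.44% of all genes). It was Pdk1, a kinase that holds back pyruvate oxidation, at 7.72 to 8.08 in C3-C5 and 8.65 to 8.94 in phrenic arrays (0.86 ± 0.12, 1.82-fold, adjusted p = 0.00317).

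Markers of other cells were higher in phrenic arrays for connective tissue. Of 19 mesenchyme genes 4 rose (21.1%, against 1.44% of all genes) and 0 fell, and the median was 1.47 against 0.0068 over all genes. The arrays did not overlap in 12 of the 19, all higher in phrenic neurons, against 4.89% of all genes. The mean of the list was 5.44, 5.14, 6.17 and 6.48 in phrenic replicates 1 to 4, 4.21, 4.55, 4.52 and 4.46 in C3-C5 GFP-only replicates and 5.59, 5.86 and 4.81 in LMC radial replicates. Every phrenic array lay above every C3-C5 array. The genes that rose were the forkhead factor Foxc1 (2.15 ± 0.38, adjusted p = 0.0155), fibronectin (Fn1, 1.49 ± 0.26, adjusted p = 0.0148), the collagen Col5a2 (1.42 ± 0.26, adjusted p = 0.0191) and periostin (Postn, 1.35 ± 0.28, adjusted p = 0.0384). The collagen Col1a1 read 8.22, 7.17, 9.62 and 9.28 against 5.75, 6.86, 6.57 and 5.40 and did not pass (2.43 ± 0.56, adjusted p = 0.0577). The number of mesenchyme genes that rose was 1 without C3-C5 GFP-only replicate 4 and 9 without phrenic replicate 2. Fn1 lost its call without C3-C5 GFP-only replicate 3 (adjusted p = 0.0545) or 4 (0.0532), Col5a2 without replicate 1 (0.0525) or 4 (0.0671), Postn in 6 of 8 fits that left out an array, and Foxc1 with the replicate block (0.0518). In bulk RNA, fewer cells of a type and less RNA per cell cannot be told apart.

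With the mesenchyme list mean as a covariate, 180 probe sets passed, 67 higher and 113 lower. Since every phrenic array lay above every C3-C5 array in this mean, the covariate cannot be fully separated from cell type. Differences could grow with it, as for Lhx3 (-6.10, against -4.90 without it), or shrink, as for Ahnak. All 20 largest increases and all 20 largest decreases kept their sign, and 7 and 12 of them passed. These included Pappa, Klf5, Hs6st2, Cadps2, Sgms2, Vwc2 and Cntnap4 among the increases and Lhx3, Lhx4, Sp8, St18, Cdh7, Opcml and Lmo3 among the decreases. The difference of Ahnak was 0.73 with the covariate. Over all 110 calls of named genes, 34 passed with the covariate and 76 did not.

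The cell cycle list had 1 of 18 genes higher (5.56%, against 1.44% of all genes), Cdk1 (1.77 ± 0.37, adjusted p = 0.0384). The arrays did not overlap in 6 of the 18, all higher in phrenic neurons, against 4.89% of all genes. The list mean was 6.71, 6.47, 7.16 and 8.0 in phrenic and 6.09, 6.41, 6.34 and 6.36 in C3-C5 replicates, so that phrenic replicate 4 stood highest. The glial and progenitor transporter Slc1a3 rose by 1.73 ± 0.38 (adjusted p = 0.045), and Olig2, a progenitor factor, was under 5 in every array. The calls of Cdk1 and Slc1a3 were lost without any of 6 and 7 single arrays and with the replicate block (adjusted p = 0.0765 and 0.0665). Interneuron (0 of 19), endothelium (0 of 11), pericyte (0 of 6), blood and macrophage (0 of 12), sensory neuron and glia (0 of 5) and skeletal muscle (0 of 11) markers did not pass in limma, with 4, 2, 1, 0, 1 and 1 genes at an unadjusted p under 0.05. Defining markers of several of these lay under 5 in all 8 arrays: Pecam1 and Kdr of endothelium, C1qa of macrophages, Myod1 and Myog of muscle, and Sox14 and En1 of interneurons. The interneuron gene Lbx1 went the other way, at 9.06, 7.31, 7.12 and 10.19 in phrenic and 5.87 to 6.74 in C3-C5 arrays, without passing (adjusted p = 0.176). Pax7, in the muscle list, read 6.42, 5.04, 5.69 and 7.55 in phrenic and 3.97 to 4.64 in C3-C5 arrays (1.79 ± 0.47, adjusted p = 0.0949). It passed without phrenic replicate 2 (adjusted p = 0.0347). Cldn5 of endothelium was at 4.55 to 5.60 against 3.95 to 4.56 (0.81 ± 0.28, adjusted p = 0.206). The list medians were -0.03 for muscle and 0.41 for endothelium. The pericyte gene Pdgfrb did not pass (0.46 ± 0.18, adjusted p = 0.289), but 1 of its 2 probe sets did. The mean of its probe sets passed too (1.11, adjusted p = 0.0234). In phrenic replicate 4 the interneuron (5.20), progenitor (7.28) and sensory neuron and glia (7.04) means were the highest of the 8 arrays. Single arrays departed for other genes: Csf1r of macrophages was at 7.0 and 7.42 in phrenic replicates 3 and 4 and at 2.59 to 4.91 in the other 6 arrays, and Gad1 of inhibitory interneurons reached 7.55 in phrenic replicate 4. Embryonic globin (Hbb-y) was at 8.10 to 10.01 in phrenic replicates 1, 2 and 4, 3.71 in replicate 3 and 8.46 to 9.55 in C3-C5 arrays.

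**Figure D5:**
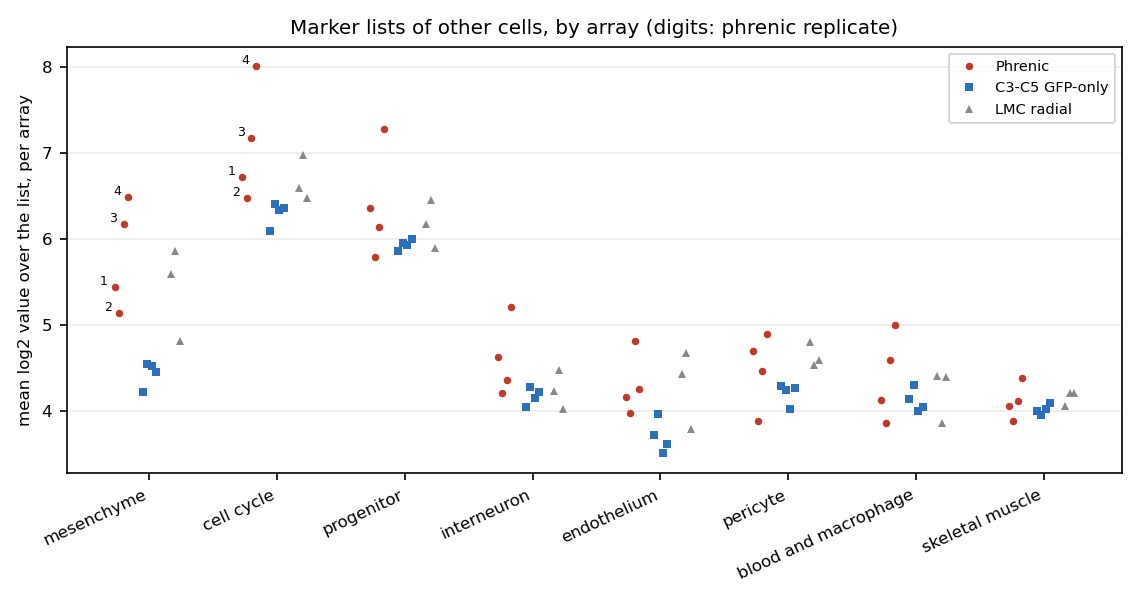
Mean log2 value over each marker list of other cells, 1 point per array, for phrenic (circles, 4 arrays, digits give the replicate in the lists of mesenchyme and cell cycle), C3-C5 GFP-only (squares, 4 arrays) and LMC radial (triangles, 3 arrays) samples. The mesenchyme means are 5.14 to 6.48 in phrenic and 4.21 to 4.55 in C3-C5 GFP-only arrays and do not overlap, and the cell cycle mean is highest in phrenic replicate 4 (8.0).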

How the data were processed

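Total RNA of sorted motor neurons was hybridised to Affymetrix arrays as labelled cRNA, per the labels' protocols. The deposited values are log2 expression values that the authors obtained with RMA (background correction, quantile normalization and summary over the probes of a set), per the submitters' processing notes; its version is not given in the sources used here. RMA equalises the distributions of the arrays, so a shift shared by most genes cannot be seen, and low values lie on a compressed scale. For arrays no read depth applies, and their number limits the precision.

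Of 45101 probe sets, 64 controls were left out. A mean per cell type was fitted over all 11 arrays in limma 3.58.1 (R 4.3.3; lmFit and eBayes, 8 residual and 2.92 prior degrees of freedom), and the contrast phrenic minus C3-C5 GFP-only was tested, with Benjamini-Hochberg adjustment over 45037 probe sets and a threshold of 0.05. The procedure was tested on simulated data. Gene symbols came from GEO's platform annotation: 34945 probe sets had 1 symbol, 932 several and 9160 none, and 34741 matched RefSeq by Entrez identifier. A gene is its probe set of highest mean over the 8 arrays. Probe sets of 1 gene can disagree, and the number passing is given for some genes.

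Members and the 52 gene lists were chosen with earlier results of these data known. Named genes were the 20 largest passing differences in each direction whose arrays do not overlap, the members with the smallest p in each list (at most 4), and a set of column genes named whatever their result. Other list members given with values, such as Neurod2, Tox, Nxph4 and Slit3, were chosen after their values were seen.

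Replicate numbers are shared between the types in the labels. Deviations from the group means correlated between arrays of the same number (r = 0.125, 0.183, 0.224 and 0.177 for replicates 1 to 4). Replicates 3 and 2 (0.280 and 0.269) and 1 and 4 (0.186 and 0.179) correlated as strongly across numbers. Arrays of different array sets correlated negatively (-0.125 to -0.254). The correlations thus followed the array sets and do not show that equal numbers mark a pair. The main fit is not paired, and the replicate number entered only in the replicate block, an alternative. Fits with the replicate block, with other normalizations, floors, filters, weights, array subsets and covariates are given in the closing section.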

Additional observations from a re-analysis of the deposited data

Results flagged for a closer look

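In 372 groups of 4 arrays, formed by the named genes and the gene list means in each type, 28 (7.53%) held an array whose gap to the others was large against the range of its group, where chance alone gives about 1 in 20. Values are log2, with the range of the other 3 arrays after each.

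Phrenic replicate 4 was low for Cdh9 (7.05, others 8.41 to 8.50), Klf5 (6.71, others 7.69 to 7.84), Cdh10 (10.31, others 10.79 to 10.84) and Grik1 (7.89, others 8.71 to 8.78). It was high for Pdk1 (8.94, others 8.65 to 8.69). The sodium and calcium channel mean was also low in that array (7.94, others 8.04 to 8.06). Phrenic replicate 1 was low for Lypd1 (6.27, others 6.69 to 6.78) and the glycolysis mean (8.76, others 8.84 to 8.85). Phrenic replicate 2 was low for the Eph and ephrin mean (6.61, others 6.79 to 6.81) and the mean of BMP antagonists (5.73, others 5.95 to 5.97).

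C3-C5 GFP-only replicate 1 was low for Synpr (6.39, others 7.34 to 7.50), Klf5 (4.77, others 5.32 to 5.37), Pou3f1 (10.43, others 10.77 to 10.84) and the mean of neurogenic and zinc finger factors (8.59, others 8.83 to 8.87). It was high for Gpr39 (9.55, others 8.56 to 8.64), Lypd1 (9.93, others 9.23 to 9.31), Gfra1 (9.78, others 9.41 to 9.45) and the plexin and neuropilin mean (7.95, others 7.76 to 7.78).

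C3-C5 GFP-only replicate 2 was high for Cbln4 (7.32, others 7.19 to 7.20) and low for the macrophage gene Mrc1 (2.58, others 3.27 to 3.36). Replicate 3 was low for the stress gene Ddit3 (6.80, others 7.36 to 7.44) and the pericyte mean (4.03, others 4.25 to 4.29). Replicate 4 was high for Foxp1 (12.48, others 12.18 to 12.21) and the sensory neuron and glia mean (5.68, others 5.31 to 5.36). It was low for Cntnap4 (5.15, others 5.55 to 5.57), the interneuron gene Lbx1 (5.87, others 6.60 to 6.74), the IgLON and contactin mean (7.56, others 7.95 to 7.99) and the synaptic vesicle mean (8.34, others 8.54 to 8.58).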

How the results depend on the processing

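Of 134 named genes 110 passed, 84 of them whichever single array was left out and 27 in every alternative with a value. Those 27 include Lhx3, Lhx4, Sp8, St18, Nkx6-1, Cdh7, Opcml, Ntm, Cbln1 and Grin2c among the decreases and Pappa, Klf5, Hs6st2, Cadps2, Pcdh10, Pcdh11x and Flrt1 among the increases. The number of passing probe sets, 882 (438 higher and 444 lower), was 516 (251 and 265) with values below 5 raised to 5. It was 309 (121 and 188) within replicates 2 and 3 of both types and 180 (67 and 113) with the mesenchyme list mean as a covariate. Leaving out single arrays gave 458 to 1240 (214 to 671 higher, 244 to 569 lower). With the replicate block as a paired analysis it was 862, of which 659 probe sets were shared, and beyond the genes named beside their results the block changed no other call of a gene named by the rule. Quantile normalization (898), median centring (894), the array set as a block (1194), array weights (1109) and the 8 arrays alone (606) stayed within 1.5 times. Of the 110 calls, 76 were lost with the mesenchyme covariate, 57 within replicates 2 and 3, 35 within replicates 1 and 4, 25 with the floor and 17 with the 8 arrays alone. With the mean of all probe sets of a gene, Ahnak (adjusted p = 0.0565), Pcdh18 (0.0969), Dscam (0.268), Sema5a (0.542), Glrb (0.0625), Scn8a (0.129), Hsd17b7 (0.0861) and Slc1a3 (0.0797) also lost their calls. Lhx1 (0.00524), Tbx3 (-0.87, adjusted p = 0.0185) and the pericyte gene Pdgfrb (1.11, adjusted p = 0.0234) passed in that setting. With the mesenchyme covariate the sign turned for Isl1 (-0.60), Chat (0.071), Hoxb4 (-0.039) and the macrophage gene Mrc1 (-1.10). Olig2, near background, had a difference of 0 with the floor, 0.014 within replicates 1 and 4, and from -0.064 to 0.012 when single arrays were left out (0.012 without phrenic replicate 2). The cause of these changes was not tested. Low signal over background limits folds of genes under a log2 value of 5, which are lower bounds.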
